A study of Mus musculus with 6 samples.

Results

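The genes of granzymes, perforin and interferon gamma, the effector molecules of killer lymphocytes, were followed here in mouse liver tumours treated with anti-PD-1. They are 10 of the 55291 genes in the deposited table, chosen by name: the granzyme genes Gzma, Gzmb, Gzmc, Gzmd, Gzme, Gzmf, Gzmg and Gzmk, the perforin gene Prf1 and the interferon gamma gene Ifng. All 10 passed the filter on low values, which asked for 1 TPM or more in 3 or more libraries, and each did so within the Cre_PD1 group alone. Polyadenylated RNA was sequenced from 6 tumours, each as 1 bulk library. The 3 MKO_PD1 tumours came from Trem2-MKO mice, a knockout of the receptor gene Trem2 in myeloid cells, and the 3 Cre_PD1 tumours from LysM-Cre mice, which carry the Cre driver alone. The LysM driver is active in macrophages, monocytes and neutrophils. All mice had received anti-PD-1, and the tumours are named RIL-175/PD-1R in the labels, after an established mouse hepatocellular carcinoma line. The term PD-1R is not spelled out there. Age, sex, dose and time of treatment are not given in the sources used here, and neither group lacks anti-PD-1.

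Cytotoxic T cells and NK cells store granzymes, a family of serine proteases, in granules together with perforin. On contact with a target cell the granules are released, perforin opens pores in the target membrane and granzymes enter and cleave proteins that lead to cell death. Granzyme B cleaves after aspartate and activates caspases, whereas granzymes A and K cleave after basic residues. Mice carry further granzyme genes beside Gzmb (Gzmc to Gzmg and Gzmn), which arose by duplication in rodents and whose substrates are less well known. Interferon gamma, secreted by the same lymphocytes, acts through its receptor and JAK kinases on macrophages and tumour cells, where it raises antigen presentation, the chemokines Cxcl9 and Cxcl10 and the PD-1 ligand Cd274. Antibodies against PD-1 act on T cells that express this receptor.

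The libraries held 26747481 to 34265123 reads recovered from the deposited values, and 1 read on 1 kb of exon amounted to 0.0763 to 0.114 TPM. TPM here are the deposited, length-normalised values rescaled to a total of 1000000 in each library. Trem2 was at 7.68, 18.0 and 6.81 TPM in MKO_PD1 replicates 1 to 3, against 10.5, 16.5 and 14.9 TPM in Cre_PD1 replicates 1 to 3, and the groups overlapped. The level of Trem2 relative to the macrophage receptor gene Csf1r was 0.0659, 0.101 and 0.0517 in MKO_PD1 and 0.129, 0.199 and 0.157 in Cre_PD1, so that all 3 MKO_PD1 libraries lay below all Cre_PD1 libraries. The divisor Csf1r was itself higher in each MKO_PD1 library, at 116, 177 and 132 TPM, against 82.0, 82.8 and 95.01 TPM in Cre_PD1. The deleted part of Trem2 is not named, and reads over the whole gene do not measure it. The 10 hepatocyte marker genes took 12.8, 2.99 and 8.82% of TPM in MKO_PD1 and 1.26, 2.38 and 2.38% in Cre_PD1, and all 10 were detected in every library, as the label liver tumour implies. MKO_PD1 replicate 2 stood apart from the other libraries for the genes described here, and results that rest on it are given with and without it.

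The promoters of 6 granzyme genes are shown because these genes mark both ends of the variation described below: Gzma changed least between tumours, Gzmd, Gzme, Gzmf and Gzmg most, and Gzmb was the most abundant. Each is the 250 bases before the gene start in RefSeq on GRCm38.p6, in the direction of transcription. Capitals mark matches, on either strand, to the RUNX core TGTGGT or to the AP-1 site TGANTCA.
Gzma promoter: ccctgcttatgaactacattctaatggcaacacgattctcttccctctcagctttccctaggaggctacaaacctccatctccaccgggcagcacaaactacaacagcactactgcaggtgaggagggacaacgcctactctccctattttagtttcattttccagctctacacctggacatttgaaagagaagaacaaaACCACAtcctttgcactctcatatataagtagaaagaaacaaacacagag
Gzmb promoter: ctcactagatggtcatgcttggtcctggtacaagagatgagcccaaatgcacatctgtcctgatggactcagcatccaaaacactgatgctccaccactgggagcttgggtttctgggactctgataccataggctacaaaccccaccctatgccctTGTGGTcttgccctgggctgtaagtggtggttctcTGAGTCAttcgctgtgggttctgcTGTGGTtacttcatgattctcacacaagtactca
Gzmd promoter: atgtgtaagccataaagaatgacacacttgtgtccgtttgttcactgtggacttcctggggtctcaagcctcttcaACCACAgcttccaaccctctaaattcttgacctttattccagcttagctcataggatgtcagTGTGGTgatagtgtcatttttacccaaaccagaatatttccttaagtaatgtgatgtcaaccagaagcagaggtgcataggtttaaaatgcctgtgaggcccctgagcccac
Gzme promoter: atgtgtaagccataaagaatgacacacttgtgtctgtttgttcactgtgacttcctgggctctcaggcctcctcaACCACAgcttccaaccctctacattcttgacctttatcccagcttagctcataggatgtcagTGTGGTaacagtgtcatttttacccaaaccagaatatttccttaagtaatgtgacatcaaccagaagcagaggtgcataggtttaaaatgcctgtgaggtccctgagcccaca
Gzmf promoter: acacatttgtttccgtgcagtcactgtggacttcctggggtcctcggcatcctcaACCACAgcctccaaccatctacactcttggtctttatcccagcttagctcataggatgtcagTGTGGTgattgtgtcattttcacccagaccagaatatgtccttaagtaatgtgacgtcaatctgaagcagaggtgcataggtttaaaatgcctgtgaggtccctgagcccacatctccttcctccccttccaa
Gzmg promoter: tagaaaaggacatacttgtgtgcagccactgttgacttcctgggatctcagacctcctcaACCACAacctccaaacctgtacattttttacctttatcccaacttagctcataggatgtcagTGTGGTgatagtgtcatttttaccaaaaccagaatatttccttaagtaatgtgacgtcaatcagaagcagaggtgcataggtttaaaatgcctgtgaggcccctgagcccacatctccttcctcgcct
These windows lie on the minus strand at chr13:113100982-113101231 (Gzma), chr14:56262335-56262584 (Gzmb), chr14:56132594-56132843 (Gzmd), chr14:56120626-56120875 (Gzme), chr14:56211408-56211657 (Gzmf) and chr14:56159580-56159829 (Gzmg). The RUNX core had 2 matches in each of Gzmb, Gzmc, Gzmd, Gzme, Gzmf and Gzmg, 1 match in Gzma and Prf1, and 0 in Gzmk and Ifng. At least 1 match was present in 14.2% of all 27025 RefSeq promoters of this length and at least 2 matches in 1.26%. In Gzmd, Gzme, Gzmf and Gzmg the matches start 62 bases apart, the distal one on the opposite strand (printed as ACCACA), whereas the spacing is 66 bases in Gzmc and 59 in Gzmb. The AP-1 site occurs in Gzmb alone among the 10 genes, and in 6.87% of all promoters. The T-box core GGTGTG, present in 16.2% of all promoters, was matched by Gzmk, and TATAAA, present in 12.97%, by Ifng. No matches overlapped among those in the sequences shown. The promoters of Gzmd and Gzme were 94.8% identical and those of Gzmf and Gzmg 82.2%. Over all pairs of Gzmc, Gzmd, Gzme, Gzmf and Gzmg the lowest identity was 70.2%, between Gzmc and Gzmf. The matches shared by these genes are therefore not independent of each other. A match to these letters is a description of the sequence and not evidence of binding.

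Gzmb was the most abundant of the 10 genes in every library. It lies on chromosome 14, 56258838 to 56262260 on the minus strand of GRCm38 (ENSMUSG00000015437.5). Gzmb was at 24.7, 226 and 35.9 TPM in MKO_PD1 replicates 1, 2 and 3, from 466, 3242 and 545 reads, against 30.5, 51.0 and 57.8 TPM in Cre_PD1 replicates 1, 2 and 3, from 445, 879 and 727 reads. MKO_PD1 replicate 2 was 3.91 times the next highest library, while MKO_PD1 replicate 1 was the lowest of all 6 on the TPM scale. MKO_PD1 replicate 1 was low for genes in general. Over all 16506 tested genes, the median log2 level minus the gene's own mean was -0.67 there, against -0.20 to 0.27 in the other libraries. Its median-of-ratios scaling factor was 0.578, against 0.868 to 1.25 in the others, so which library is lowest can depend on the scaling. The group levels were 95.5 ± 113 TPM in MKO_PD1 and 46.4 ± 14.2 TPM in Cre_PD1 (SD, n = 3 each). In bulk RNA, fewer cells of a type and less RNA per cell cannot be told apart, and this holds for every level given here.

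The pore-forming partner, Prf1 (chromosome 10, 61297833 to 61304680), was at 3.95, 64.8 and 9.15 TPM in MKO_PD1, against 7.80, 11.3 and 16.0 TPM in Cre_PD1. The level of Prf1 relative to that of Gzmb was 0.160, 0.287 and 0.255 in MKO_PD1 and 0.256, 0.223 and 0.277 in Cre_PD1. This ratio was lowest in MKO_PD1 replicate 1 and lay between 0.223 and 0.287 in the other 5 libraries, while Gzmb itself varied 9.13 times between its highest and lowest library and Prf1 16.4 times.

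Ifng (chromosome 10, 118441046 to 118445892) was at 2.59, 21.3 and 2.702 TPM in MKO_PD1, against 1.44, 4.37 and 6.70 TPM in Cre_PD1. MKO_PD1 replicate 2, with 276 reads, again stood highest, and the lowest library was Cre_PD1 replicate 1, with 19 reads (exact Poisson 95% interval 11.4 to 29.7 reads, which covers counting error only). The exons of Ifng share 336 bases with the predicted gene Gm49751 on the same strand. That gene had 1, 39 and 8 reads in MKO_PD1 and 6, 11 and 6 in Cre_PD1, and 13.5% of the 50-base windows of the Ifng transcript occur in it, so the division of reads between the pair is uncertain.

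**Figure D1:**
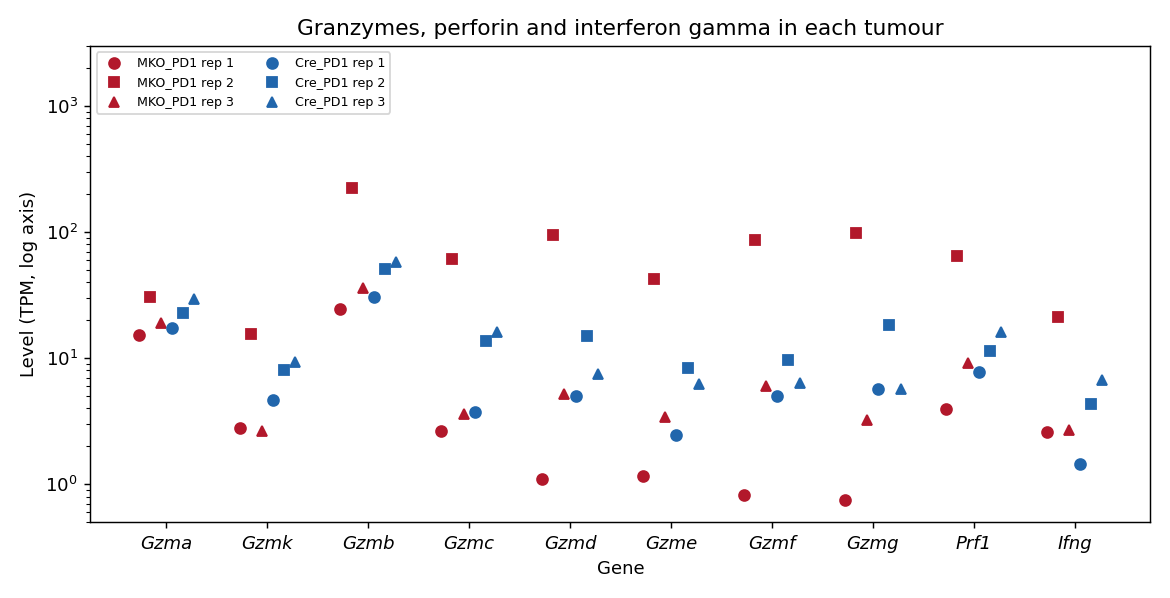
Level in TPM, on a log axis, of each of the 10 genes in each tumour library; red marks MKO_PD1, blue Cre_PD1, and circle, square and triangle are replicates 1, 2 and 3. The red square, MKO_PD1 replicate 2, is the highest point for all 10 genes, and it is set well apart from the rest for all but Gzma and Gzmk.

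The 5 granzyme genes that follow Gzmb on chromosome 14 varied most between tumours. Gzmc was at 2.64, 61.6 and 3.60 TPM in MKO_PD1, against 3.74, 13.7 and 16.2 TPM in Cre_PD1. Gzmd was at 1.11, 94.6 and 5.20 TPM in MKO_PD1, against 4.999, 15.1 and 7.46 TPM in Cre_PD1. For both genes MKO_PD1 replicate 2 lay above and MKO_PD1 replicate 1, which was low over all genes, below every Cre_PD1 library. Gzme was at 1.17, 42.7 and 3.41 TPM in MKO_PD1, against 2.47, 8.36 and 6.23 TPM in Cre_PD1. Gzmf was at 0.830, 87.1 and 5.97 TPM in MKO_PD1, against 5.03, 9.60 and 6.33 TPM in Cre_PD1. Gzmg was at 0.755, 99.1 and 3.22 TPM in MKO_PD1, against 5.73, 18.2 and 5.65 TPM in Cre_PD1. The same order of the extremes held for Gzme, Gzmf and Gzmg. From its lowest to its highest library Gzmg varied 131 times, Gzmf 105 times, Gzmd 85.4 times, Gzme 36.7 times and Gzmc 23.3 times. The low ends rest on few reads: MKO_PD1 replicate 1 had 9 reads of Gzmg (95% interval 4.12 to 17.1) and 10 of Gzmf (4.795 to 18.4), against 900 and 800 in MKO_PD1 replicate 2.

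These genes are close copies of each other. Coding sequences in GENCODE M21 were 93.3% identical between Gzmd and Gzme, 89.3% between Gzme and Gzmg and 86.8% between Gzmf and Gzmg, whereas Gzmc was nearest to Gzmb at 75.6%. Of all windows of 50 bases in the longest coding transcript, 21.9% of those of Gzmd, 20.6% of Gzme, 19.8% of Gzmg, 7.36% of Gzmf and 4.14% of Gzmc also occurred in a transcript of another gene, in each case a granzyme gene of this cluster. With windows of 100 bases the shares were 0.231% for Gzmd, 0.247% for Gzmg and 0 for Gzmc, Gzme and Gzmf. The read length is not given in the sources used here, so the division of reads among Gzmd, Gzme, Gzmf and Gzmg is uncertain, more so for short reads. Gzma, Gzmb, Gzmk and Prf1 had no window of either size in another gene. Gzmf shares 151 exon bases with the antisense gene Gm4022, which had 0 reads in every library.

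Gzma and Gzmk lie together on chromosome 13 and went less far with the other 8 genes. Gzma (113093825 to 113100981) was at 15.2, 30.7 and 19.0 TPM in MKO_PD1, against 17.5, 23.0 and 29.6 TPM in Cre_PD1. Its highest library, MKO_PD1 replicate 2, was 1.04 times Cre_PD1 replicate 3, and its highest level was 2.03 times its lowest. Gzmk (113171608 to 113225908), a granzyme of memory-type T cells, was at 2.80, 15.6 and 2.65 TPM in MKO_PD1, against 4.67, 8.03 and 9.28 TPM in Cre_PD1. For Gzmk the highest library was 1.68 times the next, and MKO_PD1 replicates 1 and 3 lay below all 3 Cre_PD1 libraries. The same order held for the median over all tested genes of the log2 level minus the gene's own mean.

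The make-up of the granzyme transcripts therefore differed between tumours. Gzmc, Gzmd, Gzme, Gzmf and Gzmg together took 13.2, 58.6 and 27.1% of the summed TPM of the 8 granzyme genes in MKO_PD1, against 29.4, 44.2 and 30.2% in Cre_PD1. Gzma took 30.8, 4.68 and 24.1% in MKO_PD1 and 23.5, 15.7 and 21.4% in Cre_PD1. Gzmb held a narrower share, 50.3, 34.4 and 45.5% in MKO_PD1 and 40.8, 34.7 and 41.7% in Cre_PD1. The level of Gzmb relative to Gzma was 1.63, 7.35 and 1.89 in MKO_PD1 and 1.74, 2.22 and 1.95 in Cre_PD1, so it was high in MKO_PD1 replicate 2 alone. Neither share nor ratio separated the groups.

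**Figure D2:**
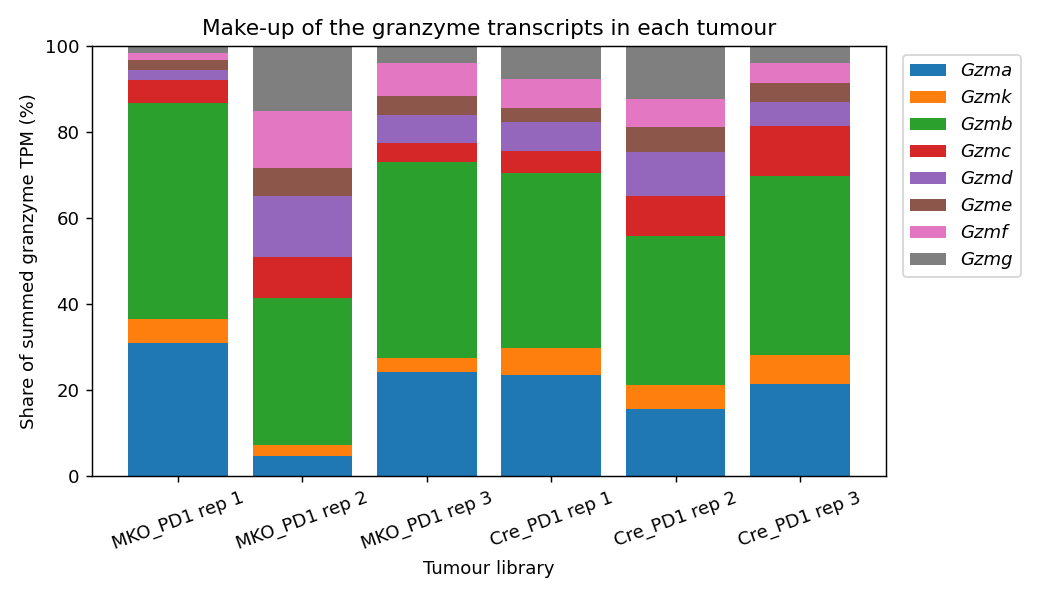
Share, in percent, of each of the 8 granzyme genes in their summed TPM, 1 bar per tumour library. Gzmc to Gzmg fill 58.6% of the bar of MKO_PD1 replicate 2 and 13.2% of that of MKO_PD1 replicate 1, with the Cre_PD1 libraries between 29.4 and 44.2%.

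The other granzyme genes were low. Gzmm, on chromosome 10, had 12 to 30 reads per library and was at 0.881, 1.56 and 0.771 TPM in MKO_PD1 and 1.07, 1.70 and 1.94 TPM in Cre_PD1. Gzmn, which sits between Gzmg and Gzmf, had 1 read in MKO_PD1 replicate 2 and 0 in each other library. The remaining genes of the cluster encode serine proteases of mast cells, basophils and neutrophils. Mcpt4, a mast cell chymase, was at 3.44, 26.1 and 2.90 TPM in MKO_PD1, against 2.57, 7.97 and 9.78 TPM in Cre_PD1. Mcpt8, a basophil protease, was at 2.06, 4.51 and 1.71 TPM in MKO_PD1, against 0.986, 2.59 and 3.09 TPM in Cre_PD1. Ctsg, cathepsin G of immature neutrophils, was at 3.91, 9.49 and 3.30 TPM in MKO_PD1, against 0.286, 2.10 and 1.33 TPM in Cre_PD1, and the groups did not overlap, as for 10.1% of all genes tested in this direction. MKO_PD1 replicate 2 was highest for 5 of the 6 tested neighbours, against 23.3% of all genes. It was at least 2 times the next library for 3 of these 6, against 3.26% of all genes. High values in MKO_PD1 replicate 2 were thus not limited to the granzyme genes, nor to this locus, as the T cell genes below show. A shared effect of the locus was not tested.

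**Figure D3:**
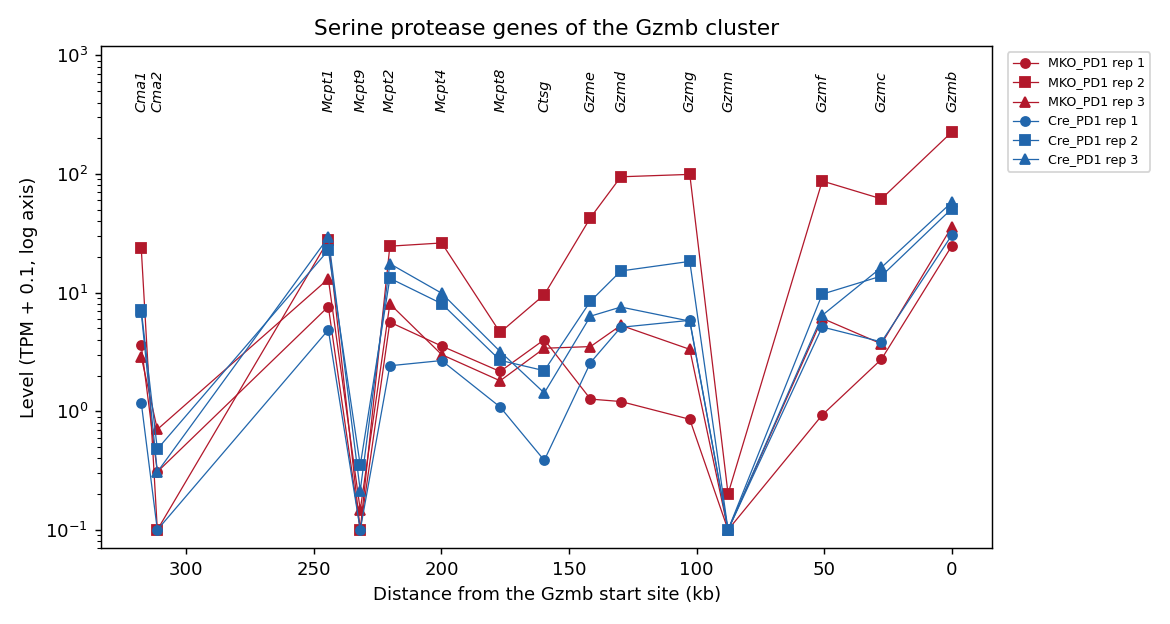
Level of the serine protease genes of the Gzmb cluster, as TPM + 0.1 on a log axis, against the distance of each gene's start from that of Gzmb in kb; lines join the genes of 1 library to guide the eye. MKO_PD1 replicate 2 (red squares) is at 42.7 to 226 TPM over the 6 granzyme genes that are members here, and Gzmn lies near 0 in all libraries.

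None of the 10 genes differed between the groups beyond the spread between tumours. Log2 differences on the log2(TPM + 1) scale, MKO_PD1 minus Cre_PD1, ranged from -0.40 (Gzmk, SE 0.60) to 0.52 (Ifng, SE 0.75), and adjusted p was 0.624 to 0.971 (limma, Benjamini-Hochberg over 16506 genes). The count past the threshold of 0.05 was 0 of 10, also with limma voom on recovered reads, and 0 of 10 had an unadjusted p under 0.05 in either fit. Over all 16506 genes tested 0.0121% passed, and 4612 had an unadjusted p under 0.05. The counts of unadjusted p in the gene lists below are to be read beside this background. The difference of Gzmb was 0.39 (SE 0.75), that of Prf1 0.28 (SE 0.85) and that of Gzmg -0.07 (SE 1.33). The median of the 10 differences was 0.24, beside -0.42 over all genes. Under median-of-ratios scaling, which brings the median of all genes to 0.0056, the 10 differences were all above 0, and their median was 0.59. The signs of Gzma, Gzmc, Gzmg and Gzmk thus turn with the scaling. In 0 of 10 genes did the groups separate, against 10.1% of all genes that separated upwards and 28.9% downwards.

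MKO_PD1 replicate 2, singled out after its values were seen, was the highest of the 6 libraries for 10 of 10 genes on the TPM scale, against 23.3% of all genes tested. For Gzma it was only 1.04 times the next highest library. It was at least 2 times the next highest library for 8 of 10, against 3.26% of all genes. Without it every one of the 10 differences was below 0. Gzmk then had a log2 difference of -1.12 (SE 0.33, limma adjusted p = 0.0361, with 0.00613 to 0.995 across settings), and both remaining MKO_PD1 libraries lay under the Cre_PD1 range. Gzmg had -1.80 (SE 0.59, adjusted p = 0.0464, with 0.0464 to 0.994 across settings), also with both MKO_PD1 libraries below the Cre_PD1 range. These 2 of 10 genes passed as lower, where 45.9% of all 15940 genes tested in that fit passed and 38.0% passed as lower, and the median difference of all genes was -0.66. The other 8 had adjusted p of 0.0817 to 0.551. Gzmb had -0.57 (SE 0.33), Prf1 -0.79 (SE 0.42) and Ifng -0.35 (SE 0.49).

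**Figure D4:**
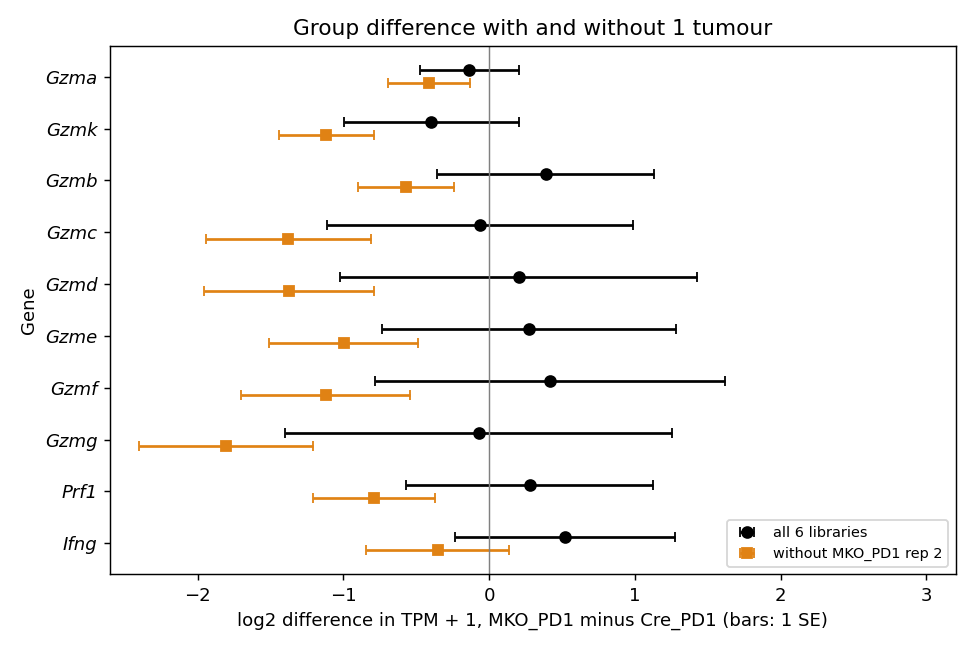
Log2 difference, MKO_PD1 minus Cre_PD1, of each gene with its SE, from all 6 libraries (black circles) and without MKO_PD1 replicate 2 (orange squares). The black bars cross 0 for all 10 genes, and the orange points lie at or below -0.35.

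T cell genes were also highest in MKO_PD1 replicate 2, with their lowest summed level, on the TPM scale, in MKO_PD1 replicate 1. The median log2 level of the markers minus the gene's own mean was -0.81 in MKO_PD1 replicate 1, beside -0.67 over all tested genes. In MKO_PD1 replicate 2 it was 1.38, beside 0.19. The 14 T cell markers summed to 91.5, 507 and 123 TPM in MKO_PD1, against 133, 183 and 222 TPM in Cre_PD1. All 14 were highest in MKO_PD1 replicate 2, and 12 were at least 2 times the next library, against 23.3% and 3.26% of all genes. Cd3e, a chain of the T cell receptor complex, was at 2.73, 17.4 and 4.66 TPM in MKO_PD1, against 4.65, 5.25 and 8.64 TPM in Cre_PD1. Cd8a, the coreceptor of cytotoxic T cells, was at 7.65, 67.2 and 13.3 TPM in MKO_PD1, against 13.8, 16.7 and 23.3 TPM in Cre_PD1. Cd8b1, its partner chain, was at 8.90, 61.1 and 9.88 TPM in MKO_PD1, against 11.5, 15.6 and 17.8 TPM in Cre_PD1. Cd4, the coreceptor of helper T cells, was at 2.46, 9.70 and 3.85 TPM in MKO_PD1, against 4.27, 5.37 and 10.8 TPM in Cre_PD1, so here Cre_PD1 replicate 3 was the highest. The part of T cell content in the granzyme levels was not tested.

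Levels were also set against T cell receptor genes within each library. The log2 level of Gzmb minus the mean log2 level of Cd3d, Cd3e and Cd3g was 2.36, 2.99 and 2.32 in MKO_PD1 and 2.04, 2.38 and 2.31 in Cre_PD1, a difference of 0.31. For Prf1 it was -0.02, 1.21 and 0.46 in MKO_PD1 and 0.20, 0.31 and 0.53 in Cre_PD1, a difference of 0.20. For Ifng it was -0.48, -0.35 and -0.9999 in MKO_PD1 and -1.65, -0.89 and -0.62 in Cre_PD1, a difference of 0.44. These 3 differences had exact two-sided permutation p of 0.4, 0.8 and 0.3, adjusted to 0.6, 0.8 and 0.6 over the 3, where 0.1 is the smallest p that 3 against 3 allows. Without MKO_PD1 replicate 2 the differences were 0.093 for Gzmb, -0.13 for Prf1 and 0.31 for Ifng, and without Cre_PD1 replicate 1 that of Ifng was 0.15. On this scale MKO_PD1 replicate 2 was the highest library for Gzmb, Gzmc, Gzmd, Gzme, Gzmf, Gzmg, Prf1 and Ifng, but not for Gzma and Gzmk. For Gzma it was the lowest, at 0.16, against 1.69 and 1.43 in MKO_PD1 replicates 1 and 3 and 1.28, 1.27 and 1.37 in Cre_PD1. Gzmg relative to the Cd3 genes ran from -1.51 in MKO_PD1 replicate 1 to 1.81 in MKO_PD1 replicate 2, with -0.81 in MKO_PD1 replicate 3 and -0.18, 0.95 and -0.83 in Cre_PD1.

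The NK cell markers had their highest summed level in Cre_PD1 replicate 1, where Klra4 gave 157 of the 190 TPM. Their sums were 26.4, 166 and 72.8 TPM in MKO_PD1 and 190, 145 and 120 TPM in Cre_PD1. Of these, the receptor gene Klra4 gave 8.88, 55.9 and 43.3 TPM in MKO_PD1 and 157, 109 and 74.1 TPM in Cre_PD1. Its groups did not overlap (log2 difference -1.91, SE 0.64, limma adjusted p = 0.168), as for 28.9% of all genes in this direction. In contrast, 5 of the 7 tested genes were highest in MKO_PD1 replicate 2, against 23.3% of all genes. The median over these 7 of the log2 level minus the gene's own mean was 0.65 in MKO_PD1 replicate 2 and -0.13 in Cre_PD1 replicate 1. Among the defining markers, the activating receptor gene Ncr1 was at 1.53, 1.36 and 1.29 TPM in MKO_PD1 and was listed at 0 in Cre_PD1 replicate 1, with 1.03 and 1.63 TPM in replicates 2 and 3. Klrb1c, which encodes NK1.1, was at 0.876, 1.05 and 0.926 TPM in MKO_PD1 and 0.432, 0.984 and 0.963 TPM in Cre_PD1. Ncr1 had 0 to 31 reads and Klrb1c 13 to 35 reads per library. Of the 7 tested NK genes 0 passed the test (limma; 1, Klra4, with an unadjusted p under 0.05). Neutrophil and basophil markers summed to 261, 1006 and 401 TPM in MKO_PD1 and 139, 208 and 106 TPM in Cre_PD1, so all 3 MKO_PD1 sums lay above every Cre_PD1 sum and MKO_PD1 replicate 2 was the highest. Of the 8 tested genes 0 passed (limma; 6 with an unadjusted p under 0.05) and 6 separated upwards. Macrophage markers were at 2421, 4439 and 2543 TPM in MKO_PD1 and 2041, 2505 and 2491 TPM in Cre_PD1, where 0 of 8 passed (limma; 3 with an unadjusted p under 0.05) and 5 separated upwards. The share of all genes that separated upwards was 10.1%. The part of these cells in the results was not tested.

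By pattern over the 6 libraries, each gene centred on its own mean, the genes nearest to Gzmb among 10866 candidates were Cxcr6, Ccl5 and Cd8b1, at mean absolute log2 distances of 0.15, 0.17 and 0.17. Cxcr6 is a chemokine receptor of tissue T cells and Ccl5 a chemokine that cytotoxic lymphocytes secrete. Nearest to Prf1 were the interferon-induced GTPase gene Gbp5 (0.16), Cd8a (0.17) and Gzmb (0.18). Nearest to Gzmk were Cxcl9 (0.15), Ch25h (0.17) and Azin2 (0.17). Gzmd had Gzmf (0.18), Gzmg (0.28) and Gzme (0.34) as its nearest genes, and Gzmc had Gzme (0.27), Mcpt4 (0.37) and Sfrp1 (0.42). The nearest genes of Gzmf and of Gzmg were likewise the other 3 of Gzmd, Gzme, Gzmf and Gzmg, whereas Gzme had Gzmc (0.27), Sfrp1 (0.29) and Prf1 (0.33). Ifng was nearest to genes of mast cell proteases, Tpsb2 (0.12), Mcpt4 (0.19) and Cma1 (0.21), which lie with Gzmb on chromosome 14 in the case of Mcpt4 and Cma1. Tpsb2 was at 4.54, 26.5 and 4.39 TPM in MKO_PD1 and 2.53, 7.84 and 11.7 TPM in Cre_PD1. Gzma was nearest to Aldh3a2, Dcun1d2 and Prr3 (0.06, 0.07 and 0.07), none of which is a lymphocyte marker. With 6 libraries such likeness describes these tumours only.

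Genes that make, load and release the granules were measured in the same libraries. None of the 12 tested genes of granule maturation and cargo passed the test over all genes (limma, 2 with an unadjusted p under 0.05). In MKO_PD1 replicate 2, 5 of them were at least 2 times the next library, against 3.26% of all genes. Srgn, the proteoglycan core that binds granzymes, was at 89.97, 445 and 215 TPM in MKO_PD1, against 126, 202 and 131 TPM in Cre_PD1. Ctsc, the protease that activates granzyme precursors, was at 135, 358 and 171 TPM in MKO_PD1, against 129, 147 and 159 TPM in Cre_PD1. Nkg7, a granule membrane protein of cytotoxic cells, was at 27.6, 165 and 35.9 TPM in MKO_PD1, against 40.6, 60.2 and 78.4 TPM in Cre_PD1. Cst7, which inhibits Ctsc and related proteases, was at 4.79, 32.0 and 6.04 TPM in MKO_PD1, against 8.78, 13.01 and 11.1 TPM in Cre_PD1. Nkg7 and Cst7, the more lymphocyte-restricted of these, had the order of libraries seen for Gzmb at both extremes. The low extreme was again the library that was low over all genes. Of the 10 tested genes of the release machinery 0 passed (limma, 1 with an unadjusted p under 0.05). In MKO_PD1 replicate 2, 6 were highest and 3 were at least 2 times the next library, against 23.3% and 3.26% of all genes. Unc13d, which primes granules for fusion, was at 6.62, 29.7 and 15.1 TPM in MKO_PD1, against 26.7, 26.0 and 31.6 TPM in Cre_PD1, and Rab27a, which docks them, at 3.36, 14.6 and 6.12 TPM in MKO_PD1, against 6.64, 5.90 and 5.71 TPM in Cre_PD1. Stx11, a syntaxin of the fusion step, was at 3.66, 16.2 and 9.08 TPM in MKO_PD1, against 11.3, 9.93 and 10.8 TPM in Cre_PD1. Unc13d had a log2 difference of -0.90 with all libraries (limma adjusted p = 0.222) and of -1.39 without MKO_PD1 replicate 2 (limma adjusted p = 0.0293). In that second fit 2 of the 10 release genes passed as lower, against 38.0% of all genes.

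Of 10 genes of granzyme inhibitors and targets 0 passed (limma; 3 with an unadjusted p under 0.05). Serpinb9, the intracellular inhibitor of granzyme B, was at 21.2, 115 and 40.8 TPM in MKO_PD1, against 41.5, 59.7 and 61.7 TPM in Cre_PD1. Its close copy Serpinb9b was at 0.296, 2.42 and 0.959 TPM in MKO_PD1, against 0.822, 1.54 and 1.06 TPM in Cre_PD1. Serpinb6b, a related serpin, was at 25.1, 165 and 68.6 TPM in MKO_PD1, against 106, 146 and 132 TPM in Cre_PD1. Gsdme, a pore-forming protein that granzyme B cleaves, was at 2.78, 2.91 and 2.28 TPM in MKO_PD1 and 2.16, 1.82 and 1.83 TPM in Cre_PD1. Fasl, the death ligand used beside granules, was at 1.26, 12.7 and 2.83 TPM in MKO_PD1, against 3.00, 3.998 and 4.95 TPM in Cre_PD1, with the extremes of Gzmb. Its receptor gene Fas was at 29.7, 33.8 and 25.8 TPM in MKO_PD1 and 11.02, 26.6 and 28.1 TPM in Cre_PD1, and Tnfsf10, which encodes TRAIL, at 5.85, 14.4 and 7.85 TPM in MKO_PD1 and 3.08, 5.39 and 8.64 TPM in Cre_PD1. Of the 6 tested genes of other death pathways 0 passed (limma; 1 with an unadjusted p under 0.05).

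Transcription factors and cytokines known to drive these genes were measured next. Of 11 transcription factors of effector lymphocytes 0 passed (limma; 2 with an unadjusted p under 0.05). Tbx21, which encodes T-bet, was at 1.78, 9.61 and 2.47 TPM in MKO_PD1, against 2.17, 2.74 and 3.39 TPM in Cre_PD1, and was 2.83 times the next library in MKO_PD1 replicate 2. Eomes was at 0.606, 3.42 and 0.956 TPM in MKO_PD1, against 2.01, 1.56 and 2.11 TPM in Cre_PD1. Runx3 was at 1.92, 17.1 and 4.76 TPM in MKO_PD1, against 9.91, 6.34 and 8.87 TPM in Cre_PD1. Prdm1, which encodes Blimp-1 and is also made outside lymphocytes, was at 3.43, 17.9 and 15.4 TPM in MKO_PD1, against 30.1, 21.5 and 27.4 TPM in Cre_PD1, and the groups did not overlap (log2 difference -1.29, SE 0.54, limma adjusted p = 0.174), as for 28.9% of all genes in this direction. Hopx, a homeodomain protein that is also made outside lymphocytes, was at 37.5, 18.5 and 27.5 TPM in MKO_PD1, against 3.31, 10.5 and 14.5 TPM in Cre_PD1, and the groups separated the other way (log2 difference 1.601, SE 0.50, limma adjusted p = 0.168), as for 10.1% of all genes. Of 12 tested inducing cytokines and receptors 0 passed (limma; 3 with an unadjusted p under 0.05). Il18, an inducer of Ifng, was at 47.9, 24.4 and 33.4 TPM in MKO_PD1, against 10.6, 17.9 and 15.4 TPM in Cre_PD1 (log2 difference 1.19, SE 0.33, limma adjusted p = 0.168), without overlap and highest in the library with the highest hepatocyte share. Il15ra, which presents Il15 to lymphocytes, also separated upwards, at 21.7, 21.2 and 21.8 TPM in MKO_PD1, against 7.08, 10.3 and 16.3 TPM in Cre_PD1. The Il18 receptor chain gene Il18rap was at 4.30, 35.2 and 17.9 TPM in MKO_PD1, against 42.3, 37.5 and 46.5 TPM in Cre_PD1, and separated downwards (log2 difference -1.48, SE 0.62, limma adjusted p = 0.174). Of the 12 genes, 2 separated upwards and 1 downwards, against 10.1% and 28.9% of all genes. Il12b was at 1.008, 2.14 and 1.30 TPM in MKO_PD1 and 1.10, 0.720 and 1.28 TPM in Cre_PD1, and Il15 at 3.54, 11.2 and 7.15 TPM in MKO_PD1 and 6.09, 7.15 and 7.37 TPM in Cre_PD1. Il2ra and Il12rb2 did not pass the filter and had their highest levels, 3.99 and 2.19 TPM, in MKO_PD1 replicate 2.

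On the receiving side of interferon gamma, 0 of 8 genes of the receptor and its signal transducers and 0 of 20 target genes passed (limma; 0 and 0 with an unadjusted p under 0.05). Ifngr1, the ligand-binding chain of the receptor, was at 43.8, 122 and 64.7 TPM in MKO_PD1, against 105, 91.9 and 90.6 TPM in Cre_PD1. Ifngr2, its signalling partner, was at 35.8, 68.4 and 45.5 TPM in MKO_PD1, against 80.7, 63.6 and 66.5 TPM in Cre_PD1. Both were lower in MKO_PD1 replicates 1 and 3 than in each Cre_PD1 library. So were the medians over all tested genes of the log2 level minus the gene's own mean (-0.67 and -0.20, against 0.13 to 0.27 in Cre_PD1). Socs1, a feedback inhibitor of cytokine signalling, was at 10.2, 79.1 and 20.1 TPM in MKO_PD1, against 18.3, 28.4 and 38.6 TPM in Cre_PD1. All 20 target genes were highest in MKO_PD1 replicate 2, 6 of them at least 2 times the next library, against 23.3% and 3.26% of all genes. Cxcl9, a chemokine that attracts T cells, was at 85.5, 356 and 106 TPM in MKO_PD1, against 146, 186 and 230 TPM in Cre_PD1. Cxcl10 was at 28.3, 161 and 48.2 TPM in MKO_PD1, against 35.5, 61.5 and 91.8 TPM in Cre_PD1. Gbp2, an interferon-induced GTPase, was at 189, 1811 and 453 TPM in MKO_PD1, against 376, 667 and 725 TPM in Cre_PD1. Cd274, the PD-1 ligand, was at 20.9, 167 and 48.3 TPM in MKO_PD1, against 40.3, 41.6 and 40.9 TPM in Cre_PD1, and MKO_PD1 replicate 2 was 3.46 times the next library. Ido1, an enzyme of tryptophan breakdown, was at 51.2, 483 and 123 TPM in MKO_PD1, against 217, 302 and 320 TPM in Cre_PD1. The transcription factor Irf1 was at 69.7, 320.5 and 119 TPM in MKO_PD1 and 124, 177 and 220 TPM in Cre_PD1, and Ciita, the regulator of MHC class II genes, at 4.21, 28.0 and 9.63 TPM in MKO_PD1 and 12.0, 9.11 and 17.4 TPM in Cre_PD1. Without MKO_PD1 replicate 2, 5 of the 20 target genes and 5 of the 8 signalling genes passed as lower, against 38.0% of all genes; Ido1 had a log2 difference of -1.78 (limma adjusted p = 0.0290).

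**Figure D5:**
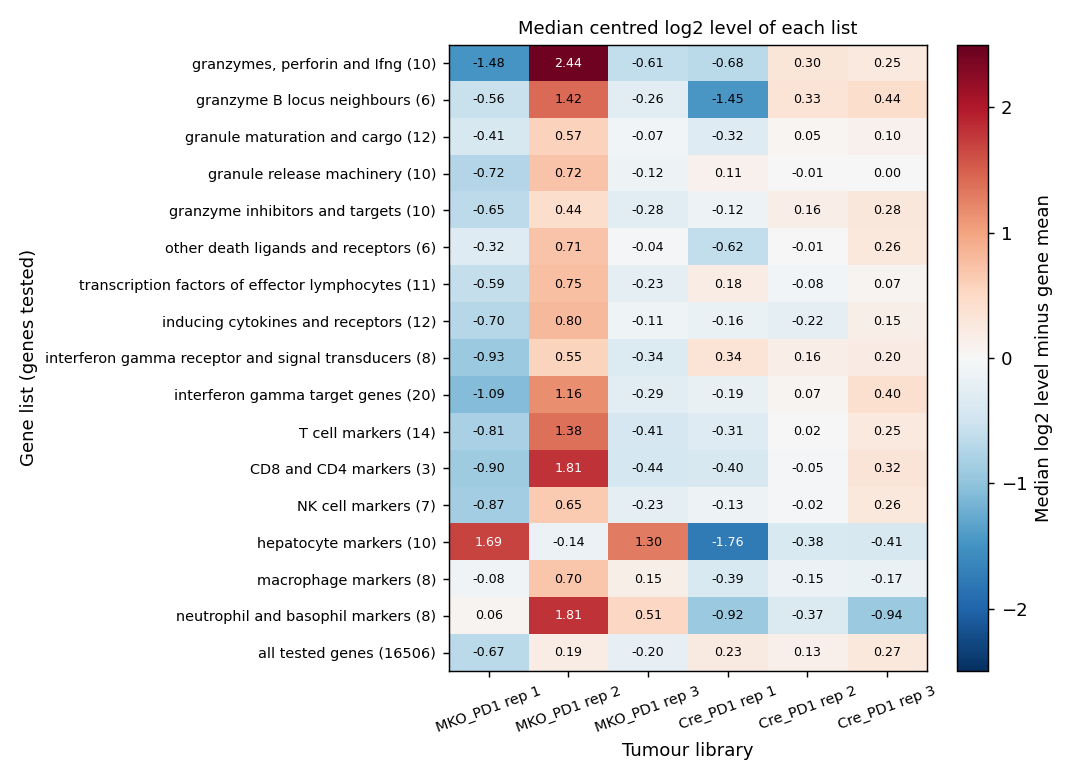
Median over each gene list of the log2(TPM + 1) level minus the gene's own mean over the 6 tumour libraries, with MKO_PD1 libraries on the left and Cre_PD1 libraries on the right; lists with at least 3 tested genes are shown and the number tested is in brackets. The 10 genes have the widest range of the lymphocyte lists, from -1.48 in MKO_PD1 replicate 1 to 2.44 in MKO_PD1 replicate 2, and the T cell markers run from -0.81 to 1.38 in the same libraries. All tested genes have -0.67 and 0.19 there.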

How the data were processed

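Per the labels, RNA was extracted with TRIzol and a column clean-up, and the molecule sequenced was polyadenylated RNA. Per the series design there were 3 mice in each group. Per the submitters' processing notes, STAR 2.7.10a, featureCounts 2.0.3 and the build mm10 were used. The authors deposited 1 value per gene and library, a length-normalised read signal that is named as TPM but was not scaled to a fixed total. The analysis was planned for TPM, so each library was rescaled to 1000000 and analysed as log2(TPM + 1). Multiplied by GENCODE M21 exon length and divided by 8.028, the deposited values gave whole read numbers, within 0.001 reads in every library, for 29354 of 29802 genes (98.5%) with a value and a length, all 10 members among them. Such reads carry no molecular identifiers.

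The 16506 genes that reached 1 TPM in 3 or more libraries were tested with limma, version 3.58.1 under R 4.3.3, using a moderated test with a mean-variance trend and no covariate, two-sided and as MKO_PD1 minus Cre_PD1, with Benjamini-Hochberg adjustment over all of them. The procedure was tested on simulated data without an outlying library, so that test does not measure power or error in these data. Ratios to Cd3 genes used exact permutation over libraries. Members and lists were chosen with earlier results of these data known. Named genes are the 10 members, genes picked by role from each list, and the 3 nearest in pattern to each member among genes averaging at least 5 TPM, predicted genes, pseudogenes and receptor segments left out. Genes named outside this rule are Gm49751 and Gm4022, for their overlap, the Cd3 genes of the ratios, and Klra4, Hopx and Il15ra, chosen after their values were seen. Vamp7 of the release list was not analysed here, and values of some listed genes are not reported here. Alternatives changed pseudocount, filter, scaling, trend, sample weights, a block on replicate number, count model and each library in turn. Promoter sequences are RefSeq's, found for all 10 members.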

Additional observations from a re-analysis of the deposited data

How the results depend on the processing

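The count of genes past the threshold, 2 with all libraries, was 0 with no filter, with 5 TPM, with quantile normalization, with voom on recovered reads and with the replicate block, 1 with median-of-ratios scaling and 10551 with sample quality weights, which gave MKO_PD1 replicate 3 a weight of 11.05 and the others 0.190 to 1.83. Leaving out 1 library gave 0 to 7314, the highest without MKO_PD1 replicate 2. Of the 10 genes, 2 (Gzmc at -1.32 and Gzmk at -1.18) passed with quality weights, 0 with the replicate block, and 0 to 2 with 1 library left out. Over all tested genes, replicate numbers did not pair the tumours (correlations of deviations between same-numbered libraries -0.42, -0.27 and 0.05). Among the 10 genes the replicate block lowered the SE of all but Gzma. That of Gzmg went from 1.33 to 0.72 and that of Gzmb from 0.75 to 0.54, while that of Gzma rose from 0.34 to 0.39.

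Signs reversed as follows. Median-of-ratios scaling, quantile normalization and voom gave Gzma 0.35, 0.27 and 0.37, Gzmc 0.34, 0.26 and 0.46 and Gzmg 0.25, 0.23 and 0.27. Gzmk was 0.0050 with median-of-ratios scaling and 0.033 with voom, and Gzmc 0.029 with the values as deposited. Quality weights gave Gzmb -0.35, Gzmd -0.70, Gzme -0.60, Gzmf -0.21, Prf1 -0.29 and Ifng -0.41. With 1 library left out, log2 differences ran from -0.41 to 0.078 for Gzma, -0.57 to 0.998 for Gzmb, -1.38 to 0.67 for Gzmc, -1.37 to 1.38 for Gzmd, -0.998 to 1.17 for Gzme, -1.12 to 1.67 for Gzmf, -1.80 to 1.11 for Gzmg, -1.12 to -0.02 for Gzmk, -0.79 to 1.07 for Prf1 and -0.35 to 0.96 for Ifng. The Prf1 ratio to Cd3 genes ran from -0.13 to 0.49. The other 91 of 109 differences from settings that keep all libraries held their direction, as did all ratios of Gzmb and Ifng. That count includes settings that cannot change a difference. These are no filter, the 5 TPM filter, the fit without trend and the replicate block, so the count does not measure stability. Ifng did not pass the 5 TPM filter, so it has no value there. The cause of these changes was not tested.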
